A study of Mus musculus with 2 samples.

Results

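T cell receptor variable (V) segment genes are the germline pieces that a developing T cell joins to a J segment (with a D segment in the beta and delta chains) to make the variable end of its receptor. They were followed here in cells sorted as group 3 innate lymphoid cells (ILC3s), lymphocytes that are defined by having no such receptor. Members were all genes whose symbol starts with Trav, Trbv, Trdv or Trgv, chosen by name and not by any measured value. Of 23679 genes listed in either deposited table, 93 were members: 62 Trav (alpha), 24 Trbv (beta), 6 Trdv (delta) and 1 Trgv (gamma). Of these, 57 were listed for both samples, 52 had at least 1 UMI (a counted molecule) in a kept cell, 22 had one in both samples, and 24 had exactly 1 UMI in all. GENCODE M21 annotates 170 such genes in the mouse, 34 of them as pseudogenes.

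The cells came from the small-intestinal lamina propria of male C57BL/6 mice aged 18 months and were counted on the BD Rhapsody system. There is 1 group with 2 samples, called replicates 1 and 2 below, each a separately tagged sample in its own library, and no young or treated group belongs to it. The labels state no genotype, no sort gates, and not whether the replicates were separate animals. Unless said otherwise, the fits took out the difference between the 2 samples themselves. Each p-value then measures only how far differences between sets of cells vary over 2 samples, and that spread may be technical. After filters on genes and mitochondrial counts 3337 and 3840 cells were kept in replicates 1 and 2, with 6939790 and 6810214 UMIs and medians of 1880 and 1674 UMIs per cell. The libraries shared 303 cell barcodes, of which 10 were among kept cells of both replicates.

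A functional alpha or beta V segment is transcribed from its own promoter once rearrangement has brought it close to a constant gene, so a spliced transcript runs from V through J into the constant region. In mice, a wave of gamma delta T cells made in the fetal thymus carries an almost fixed receptor in which Trdv4 (V delta 1) is joined to Tcrg-V6, and these cells settle in tissues as producers of interleukin 17. Alpha beta T cells use many different Trav and Trbv segments, while the innate-like MAIT and iNKT cells share a fixed alpha chain made with Trav1 and Trav11. Innate lymphoid cells are known to transcribe some unrearranged or partly rearranged receptor loci, and constant gene transcripts alone therefore do not mark a T cell.

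The end of each segment, around the conserved cysteine codon that closes its framework, is where it is joined and is the part in which related segments must be told apart. The last 60 bases of 6 segments on which the results turn are shown 5′ to 3′ on the coding strand, with that cysteine codon in capitals. Sequences and positions are those of GENCODE M21 on GRCm38. Tcrg-V6 and Tcrg-V1 are gamma segments that carry another kind of symbol and so are not members; they are shown because the first is a known partner of Trdv4 and the second lies next to Trgv2.
Trdv4: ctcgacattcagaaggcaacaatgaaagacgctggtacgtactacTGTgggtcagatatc
Tcrg-V6: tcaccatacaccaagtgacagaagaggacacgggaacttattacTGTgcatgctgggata
Trgv2: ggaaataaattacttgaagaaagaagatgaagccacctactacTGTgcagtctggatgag
Tcrg-V1: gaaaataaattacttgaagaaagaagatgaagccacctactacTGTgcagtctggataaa
Trbv12-2: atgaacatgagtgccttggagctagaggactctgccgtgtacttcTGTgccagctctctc
Trbv12-1: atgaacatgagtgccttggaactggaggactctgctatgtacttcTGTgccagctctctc
Trdv4 spans chr14:54074905-54075515 on the plus strand, 67.3 kb from Trdc, and every 50-base window of its transcript is unique among the V segments. Its span overlaps another annotated gene, Gm30275, and how reads in such an overlap were assigned is not given. Tcrg-V6 spans chr13:19190356-19190929 (+) and, like Tcrg-V5, overlaps the annotated gene Gm31887. Trgv2 spans chr13:19336573-19337167 on the minus strand, 29.0 kb from Tcrg-C2, which lies on the same strand, and 2.82 kb from Tcrg-V1 at chr13:19339989-19340454 (+). Over these 60 bases Trgv2 and Tcrg-V1 differ at 3 positions, but over 374 bases aligned from the end they are 58.6% identical. By the same measure Trgv2 is closer to Tcrg-V3, at 90.7% over 353 bases, although Tcrg-V3 had only 3 and 2 UMIs in all. Of the 50-base windows of Trgv2 93.0% are unique, but of those of Tcrg-V1 only 75.4%. The others are shared among Trgv2, Tcrg-V1 and Tcrg-V3, so reads from these stretches could belong to more than 1 of them. Trbv12-2 (chr6:41118851-41119364, +) and Trbv12-1 (chr6:41113550-41114067, +) differ at 4 of the 60 bases, but share no 50-base window. All such windows of Trbv12-1 are unique, and 98.8% of those of Trbv12-2, the others being shared with the pseudogene Trbv12-3. Whether reads were divided between these segments with error was not tested.

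All V segments together gave 405 UMIs in replicate 1 and 403 in replicate 2, or 58.4 and 59.2 CPM (UMIs scaled to a common library total of 1e+06), and were seen in 9.08% and 8.26% of kept cells. No cell held more than 5 UMIs of 1 segment. Only 2 members made up most of this signal. Trdv4 had 144 and 158 UMIs, 35.6% and 39.2% of the total, and Trgv2 had 148 and 131 UMIs, 36.5% and 32.5%. All Trav segments gave 24 and 29 UMIs and all Trbv segments 76 and 75, so the whole alpha repertoire was carried by fewer molecules than either of these genes. Of the listed members 10 are annotated as pseudogenes, with 6 UMIs in all.

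Cells were then classed by receptor constant and Cd3 genes, which are not V segments. Trac cells had at least 1 UMI of Trac, the alpha constant gene, at least 1 of Cd3d, Cd3e or Cd3g, which encode the signalling chains of the receptor, and none of Trdc. Trdc cells had Trdc, the delta constant gene, and Cd3 but no Trac. T-gene-zero cells had 0 UMIs of 11 genes: Trac, Trdc, Trbc1, Trbc2, Tcrg-C1 to Tcrg-C4, Cd3d, Cd3e and Cd3g. There were 681 and 596 Trac cells, 121 and 111 Trdc cells and 418 and 567 T-gene-zero cells in replicates 1 and 2. Their median depths were 2057 and 1803.5 UMIs in Trac cells, 2058 and 1796 in Trdc cells and 1478.5 and 1444 in T-gene-zero cells, which were thus the shallowest. The largest set, 1540 and 1768 cells, had Trbc or Tcrg-C UMIs but no Trac, Trdc or Cd3, and is called the Trbc or Tcrg-C cells. A further 40 and 60 cells had both Trac and Trdc, and 537 and 738 fitted no class.

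The label of the sort was checked against 8 ILC3 markers and 12 T cell markers. All 8 ILC3 markers were found in every class, and their summed level was 3832 and 4845 CPM in Trac cells, 4029 and 5172 CPM in Trdc cells and 5212 and 7072 CPM in T-gene-zero cells. The markers did not move together. Il7r gave 2202 and 2652 CPM in Trac cells, the largest part of the sum, and 1712 and 2225 CPM in T-gene-zero cells. Kit was lower in Trac cells, at 64.4 and 64.2 against 400 and 315 CPM. Il22 was lower there too, at 572 and 505 against 2021 and 2795 CPM. The T cell list summed to 5815 and 5227 CPM in Trac cells, 3932 and 3287 CPM in Trdc cells and 136 and 236 CPM in T-gene-zero cells, but 6 of the 12 (Trac, Trbc1, Trbc2, Cd3d, Cd3e and Cd3g) took part in choosing these classes. Cells with T cell receptor constant genes and Cd3 were therefore present in the sorted cells. Fibroblast markers differed between the replicates, at 2446 and 33.8 CPM in Trac cells, 1111 and 43.4 CPM in Trdc cells and 4883 and 166 CPM in T-gene-zero cells. The B cell and plasma cell list summed to 2814 and 442 CPM in Trac cells, 20697 and 43.4 CPM in Trdc cells and 23585 and 13659 CPM in T-gene-zero cells. With fibroblast-marked and immunoglobulin-high cells left out, a setting added after the data were seen, the calls of Trdv4 and Trgv2 given below were all kept.

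At least 1 V segment UMI was found in 20.3% and 15.9% of Trac cells, 47.1% and 39.6% of Trdc cells and 1.20% and 3.35% of T-gene-zero cells. Summed levels of all members were 107 and 101 CPM in Trac cells, 376 and 318 CPM in Trdc cells and 6.94 and 25.2 CPM in T-gene-zero cells. In the Trbc or Tcrg-C cells the share was 2.14% and 3.51%, close to that of T-gene-zero cells and far under that of both Cd3 classes. Among T-gene-zero cells marked by fibroblast genes, a background set that by its choice lacks the same 11 genes, 0 of 41 and 0 of 4 had a UMI of a member, at median depths of 2290 and 2220 UMIs. Of the gamma segments outside the list, Tcrg-V5 and Tcrg-V7 did have UMIs there, in 2 and 1 of the 41 cells of replicate 1. A count of 0 of 41 cells allows a share of up to 7.32%, so this background is poorly bounded. Intervals and limits given here cover counting error only.

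**Figure D1:**
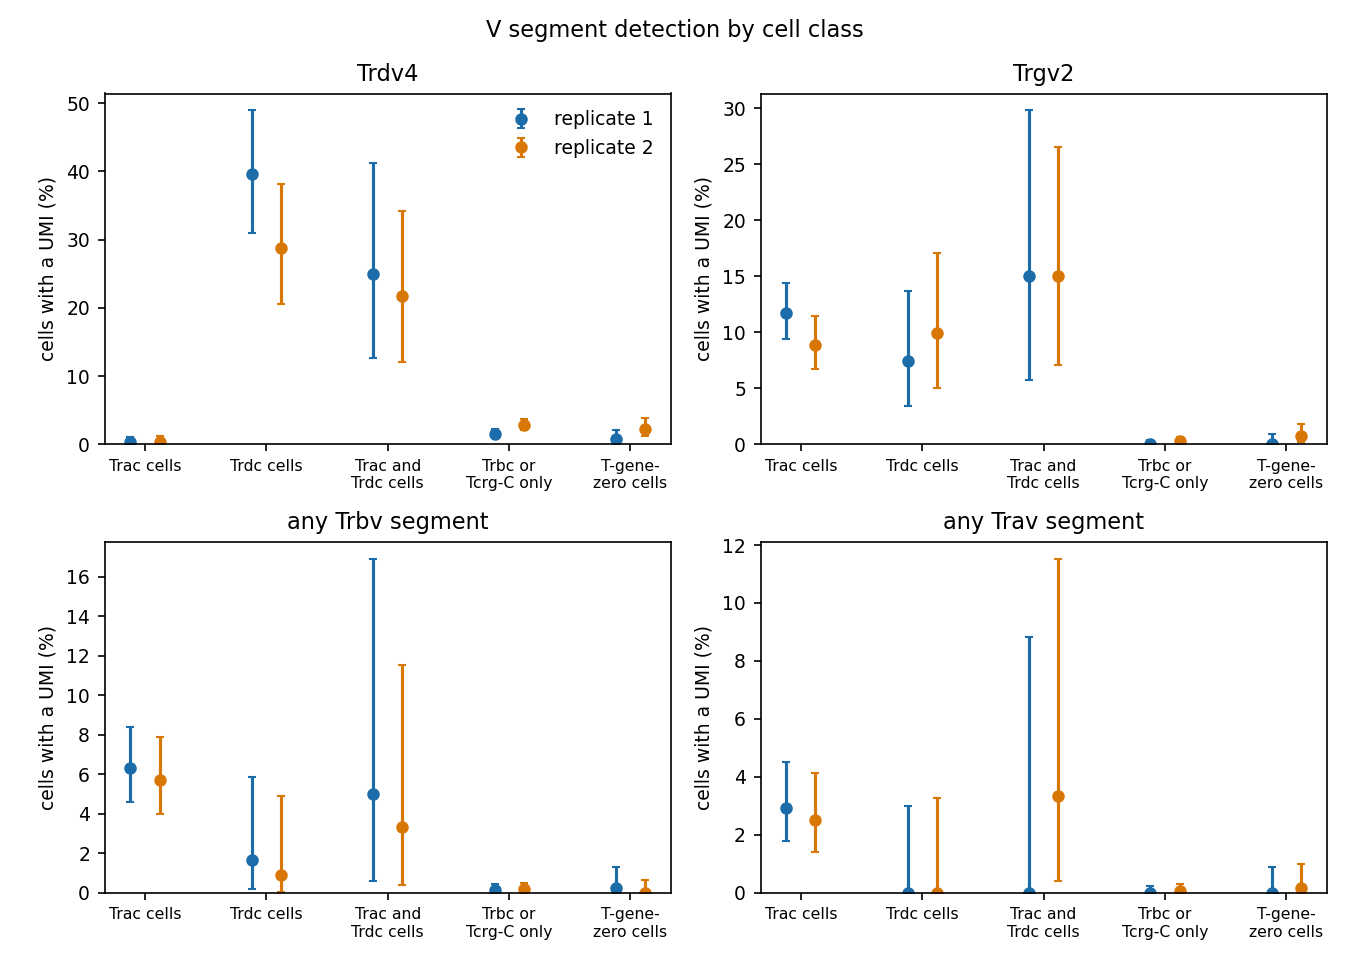
Share of cells (percent, y axis) with at least 1 UMI of Trdv4, Trgv2, any Trbv or any Trav in each cell class, 1 point per replicate with its exact 95% Clopper-Pearson interval. Trdv4 stands at 39.7% and 28.8% in Trdc cells and under 3% in Trac and T-gene-zero cells, while Trgv2 stands near 10% in both Trac and Trdc cells.

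Trdv4 was the V segment most often detected in Trdc cells. It had 90 and 51 UMIs there, 323 and 246 CPM, against 3 and 15 UMIs, 4.16 and 17.2 CPM, in T-gene-zero cells, and the values of the classes did not overlap. It was detected in 39.7% (95% interval 30.9 to 49.0%) and 28.8% (20.6 to 38.2%) of Trdc cells and in 0.718% and 2.29% of T-gene-zero cells. On summed counts with the replicate as a block, Trdv4 was higher in Trdc cells by 4.66 ± 0.37 (log2 ratio ± SE; edgeR quasi-likelihood test with Benjamini-Hochberg adjusted p = 1.74e-06). Of 7550 genes tested in this comparison 7.15% were called at an adjusted p of at most 0.05, 2.66% higher and 4.49% lower. Only 2 members, Trdv4 and Trgv2, had enough counts to enter the test. A gene that enters through the class in which it is high had to differ. The number called is therefore not a result about V segments as a family. Both classes were also chosen by Trdc, so the adjusted p of Trdv4 is not independent of that choice.

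Trac cells held almost no Trdv4. There were 2 and 2 UMIs in Trac cells, 1.26 and 1.73 CPM, against 90 and 51 UMIs in Trdc cells. Trdv4 was lower in Trac than in Trdc cells by a log2 ratio of -7.48 ± 0.46 (edgeR quasi-likelihood, Benjamini-Hochberg adjusted p = 1.45e-07), where 0.437% of 7550 genes were called, 0.212% higher and 0.225% lower. These classes were chosen by Trac and Trdc themselves. Trdv4 was not counted in that choice, but it is a delta segment and Trdc is the delta constant gene. Leaving out cells with Trdc therefore bears on Trdv4 as well, and this contrast is not independent of how the classes were chosen. Without the replicate block the log2 ratio was -7.46 and edgeR's adjusted p was 0.0517. In cells with both constant genes it was found in 10 of 40 and 13 of 60 cells.

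Trdv4 was also present at a low level in the T-gene-zero cells, and above the level in Trac cells. The T-gene-zero cells lacked the 11 genes named above but not every T cell marker: the kinase gene Lck had a UMI in 10.8% and 20.5% of them, the adaptor gene Lat in 7.42% and 8.11% and Cd247 in 0.718% and 1.59%. Its share was 0.294% and 0.336% of Trac cells, against 0.718% and 2.29% of T-gene-zero cells, although the Trac cells were deeper. With every cell thinned to 1000 UMIs the shares were 0.0537% and 0.121% of Trac cells and 0.567% and 1.61% of T-gene-zero cells. The log2 ratio of Trac over T-gene-zero cells was -2.82 ± 0.78 (edgeR quasi-likelihood, Benjamini-Hochberg adjusted p = 0.0198), where 16.1% of 7550 genes were called, 6.53% higher and 9.54% lower. The call rests on few molecules and was lost when Cd3 was not required of Trac cells (log2 ratio -1.40, adjusted p = 0.121) and without the replicate block (-2.80, adjusted p = 0.193). The Trbc or Tcrg-C cells held 27 and 59 Trdv4 UMIs in 1.56% and 2.77% of cells, the second largest pool after Trdc cells in replicate 1 and the largest in replicate 2.

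Other segments with a Trdv symbol were rare. In Trdc cells Trdv4 made up 97.8% and 96.2% of Trdv UMIs, and the rest were 2 and 2 UMIs of Trdv5. Trdv5 (chr14:54148662-54149294, −) overlaps the annotated end of Trdc on the opposite strand, so its few counts in Trdc cells are uncertain. Trdv2-2, which overlaps the annotated gene Gm43647, had 6 and 4 UMIs in the Trbc or Tcrg-C cells and 0 in Trac and Trdc cells of both replicates. The inverse Simpson index, which is 1 when a single segment is used, was 1.04 and 1.08 for Trdv in Trdc cells. These values cover only the 50 of 121 and 34 of 111 Trdc cells with a Trdv UMI. Segments whose symbol names both an alpha and a delta number, such as Trav15-1-dv6-1, were counted with Trav. No Trav UMI was found in Trdc cells, but Trav was rarely detected in any class, so use of such segments there is not excluded.

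Tcrg-V6, a gamma segment known to pair with Trdv4, had 14 and 3 UMIs in Trdc cells, 0 and 0 in Trac cells and 1 and 0 in T-gene-zero cells. In the Trbc or Tcrg-C cells, where Trdv4 had 27 and 59 UMIs, Tcrg-V6 had 0 and 1. Trdv4 and Tcrg-V6 were seen together in 6 and 2 Trdc cells. Tcrg-V5, the gamma segment of epidermal gamma delta T cells, which also pair it with Trdv4, had another pattern, with 5 and 2 UMIs in Trdc cells, 5 and 1 in Trac cells, 12 and 13 in T-gene-zero cells and 59 and 60 in the Trbc or Tcrg-C cells. Tcrg-V5 was lower in Trac than in T-gene-zero cells by a log2 ratio of -2.83 ± 0.67 (edgeR quasi-likelihood, Benjamini-Hochberg adjusted p = 0.00802). Its level in T-gene-zero cells, 16.6 and 14.9 CPM, was close to the 15.8 CPM of fibroblast-marked cells in replicate 1, from 2 UMIs, so the T-gene-zero level is not shown to be above background. Trdv4 and Tcrg-V5 thus both had more UMIs in T-gene-zero than in Trac cells, and were seen together in 0 and 0 T-gene-zero cells.

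Trgv2, which neighbours the inverted Tcrg-C2 constant gene, was the V segment most often detected in Trac cells. It had 97 and 62 UMIs in Trac cells, 61.2 and 53.8 CPM, against 0 and 5 UMIs, 0 and 5.73 CPM, in T-gene-zero cells. Its log2 ratio of Trac over T-gene-zero cells was 4.15 ± 0.50 (edgeR quasi-likelihood, Benjamini-Hochberg adjusted p = 2.47e-05). In Trdc cells it had 11 and 12 UMIs, 39.4 and 57.8 CPM, and its log2 ratio over T-gene-zero cells was 3.87 ± 0.68 (adjusted p = 0.00188 by the same test). It was found in 11.7% (9.43 to 14.4%) and 8.89% (6.73 to 11.5%) of Trac cells and in 7.44% (3.46 to 13.7%) and 9.91% (5.05 to 17.04%) of Trdc cells. Without the replicate block the log2 ratios of Trgv2 over T-gene-zero cells were 4.15 in Trac and 3.89 in Trdc cells, and edgeR's adjusted p was 0.0628 and 0.188, past the threshold in neither.

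No difference in Trgv2 was found between Trac and Trdc cells. The log2 ratio of Trac over Trdc cells was 0.28 ± 0.39 (edgeR quasi-likelihood, Benjamini-Hochberg adjusted p = 0.944), and the intervals of the shares overlap. Trgv2 was rare in the Trbc or Tcrg-C cells, at 0.0649% and 0.283%, although these cells were nearly as deep as the Trac cells, with medians of 1866 and 1691 UMIs. Trdv4 and Trgv2 were thus unlike in this class, the first at 27 and 59 UMIs and the second at 1 and 6.

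The number of V molecules per constant molecule differed greatly between the segments. In Trac cells Trgv2 made up 20.9% (17.3 to 24.8%) and 20.7% (16.3 to 25.8%) of Trgv2 and Tcrg-C2 UMIs, and in Trdc cells 17.2% (8.90 to 28.7%) and 26.7% (14.6 to 41.9%). Trdv made up 11.3% and 10.2% of Trdv and Trdc UMIs in Trdc cells. Trav made up 1.01% and 0.956% of Trav and Trac UMIs in Trac cells, and Trbv 1.76% and 2.15% of Trbv and Trbc UMIs. The intervals of these alpha and beta shares lie wholly below those of the Trgv2 and Trdv shares in both replicates. The gamma segments Tcrg-V4 to Tcrg-V7 were not as high, at 2.71% (1.72 to 4.04%) and 1.37% (0.551 to 2.80%) of their UMIs and those of Tcrg-C1 in Trac cells, which overlaps the Trbv intervals. Tcrg-V1 stood between, at 7.61% (4.32 to 12.2%) and 10.5% (5.16 to 18.5%) of its UMIs and those of Tcrg-C4 in Trac cells. Trac and Trdc UMIs also chose the cells, which lowers the Trav and Trdv shares, while Tcrg-C2 took no part in choosing Trac or Trdc cells. Shares of cells with a V segment of different loci are therefore not on one scale.

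**Figure D2:**
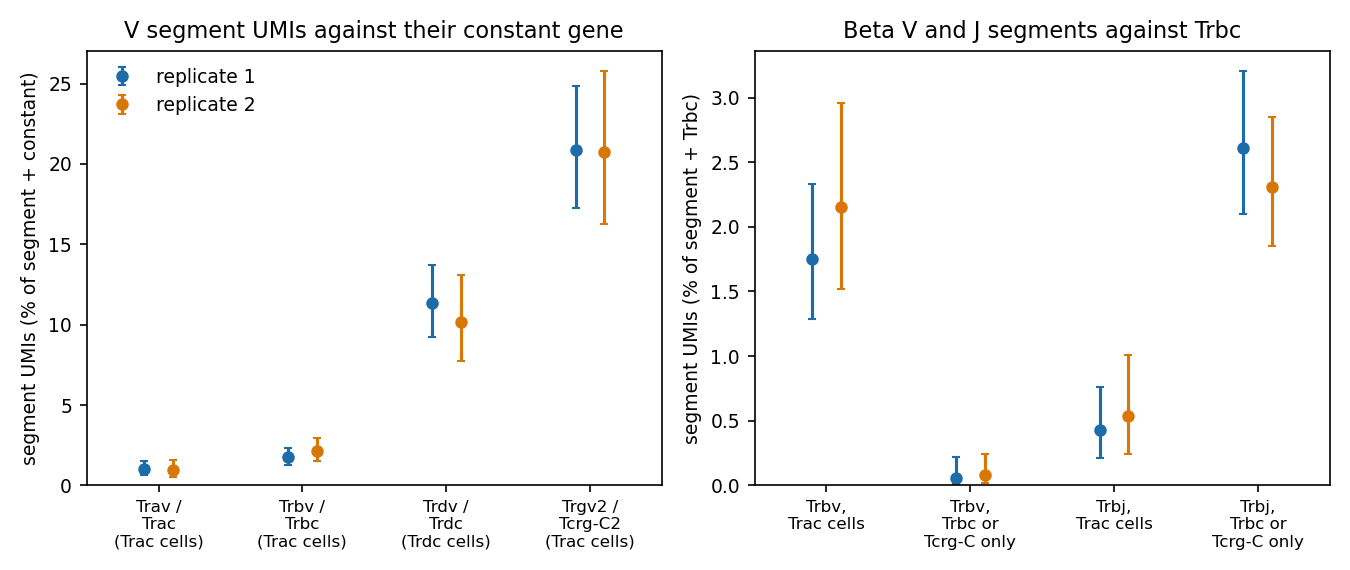
Percent of V plus constant UMIs that came from the V segments (y axis), per pair of genes and replicate with exact 95% Clopper-Pearson intervals, on the left for each locus in the cells named under it and on the right for Trbv and Trbj against Trbc by cell class. Trgv2 stands near 21% in Trac cells and Trav near 1%, and Trbj exceeds Trbv in the Trbc or Tcrg-C cells, at 2.61% and 2.31% against 0.0608% and 0.0834%.

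Beta transcripts in Trac cells were of another make than those in the Trbc or Tcrg-C cells. In Trac cells Trbv made up 1.76% (1.29 to 2.33%) and 2.15% (1.52 to 2.96%) of Trbv and Trbc UMIs. The same share in the Trbc or Tcrg-C cells was 0.0608% (0.00737 to 0.219%) and 0.0834% (0.0172 to 0.244%), with 2 and 3 Trbv UMIs beside 3287 and 3592 Trbc UMIs. The J segments ran the other way, with Trbj at 0.425% (0.213 to 0.760%) and 0.533% (0.244 to 1.01%) of Trbj and Trbc UMIs in Trac cells, and at 2.61% (2.10 to 3.20%) and 2.31% (1.85 to 2.85%) in the Trbc or Tcrg-C cells. The intervals of the classes do not overlap in either replicate. The Trbc or Tcrg-C cells were chosen in part on having Trbc UMIs, which lowers both shares alike, and no test was run.

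Among these classes, alpha and beta segments were mostly found in Trac cells. Trbv was detected in 6.31% and 5.70% of Trac cells, 1.65% and 0.901% of Trdc cells and 0.239% and 0% of T-gene-zero cells, from 46 and 37 UMIs, 2 and 1 UMIs, and 1 and 0 UMIs. Trav was detected in 2.94% and 2.52% of Trac cells, in no Trdc cell, and in 0 and 1 T-gene-zero cells. With 0 of 121 and 0 of 111 Trdc cells, Trav shares of up to 2.48% and 2.70% are allowed, which includes the share in Trac cells of replicate 2. Alpha V segments were thus counted in under 3% of the cells chosen for an alpha constant gene.

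Beta usage was spread over many segments. Trac cells used 14 and 12 Trbv segments, 11 of them in both replicates, which is 78.6% and 91.7% of those seen. Trbv12-2, a member of the V beta 5 family, was first in replicate 1 with 16 of 46 UMIs from 14 cells, 34.8% (21.4 to 50.2%), and had 6 of 37 UMIs in replicate 2, 16.2% (6.19 to 32.0%). Trbv19 was first in replicate 2 with 7 UMIs, 18.9% (7.96 to 35.2%), and had 2 UMIs in replicate 1, 4.35% (0.531 to 14.8%). The intervals overlap for both segments, and no test of a difference between the replicates was run. Trbv2 had 8 and 3 UMIs and Trbv13-2, a V beta 8 segment common among MAIT and iNKT cells, had 5 and 5. The inverse Simpson index of Trbv was 5.57 and 8.50.

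**Figure D3:**
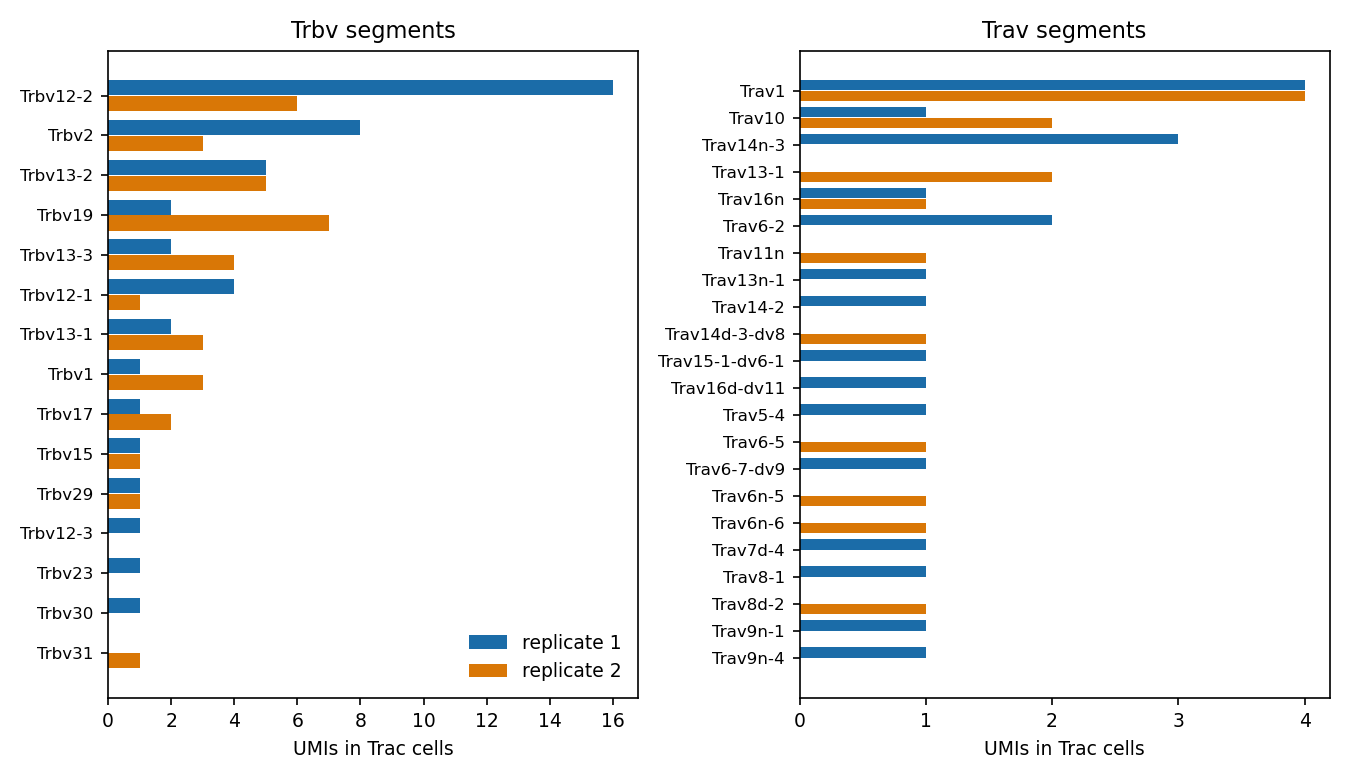
UMIs (x axis) of each Trbv and Trav segment seen in Trac cells, 1 bar per segment and replicate. Trbv12-2 had 16 and 6 UMIs and Trbv19 had 2 and 7, so a different Trbv segment leads in each replicate, and Trav1 with 4 and 4 leads Trav, while most Trav segments had 1 UMI in 1 replicate only.

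Alpha usage was too thinly sampled to rank. Trac cells showed 15 and 10 Trav segments from 21 and 15 UMIs, of which 12 and 7 were seen once, and the replicates shared 3, Trav1, Trav10 and Trav16n. Trav1, the MAIT alpha segment, had 4 and 4 UMIs in 4 and 4 Trac cells, 19.05% (5.45 to 41.9%) and 26.7% of Trav UMIs. Zbtb16, the transcription factor PLZF that innate-like T cells share, had a UMI in 1 of 4 and 3 of 5 cells with Trav1, and Traj33, the J segment of the MAIT chain, had none. Trav11n, a copy of the iNKT segment that is annotated as a pseudogene, was not listed for replicate 1. It had a UMI in 3 cells of replicate 2, of which 1 was a Trac cell, with no Traj18. Trav11 itself was listed for neither sample, so these counts are not a full search for the iNKT chain. Of 128 annotated Trav genes, 74 share over 50% of their 50-base windows with another V segment, because the locus is duplicated in C57BL/6, and 12 of these had a UMI. Reads of such copies could be assigned to either or dropped.

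No Trac cell held UMIs of 2 different Trav or of 2 different Trbv segments. A Trav and a Trbv segment were seen together in 1 and 2 Trac cells, Trbv with Trgv2 in 5 and 4, and Trav with Trgv2 in 1 and 3. Gamma segment transcripts were therefore found in cells that also held an alpha or beta V segment. In Trdc cells a Trdv segment was seen with some gamma segment in 13 and 4 cells.

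Trdc cells were then split by whether they held a Trdv4 UMI, to describe what else marked the cells in which this segment was counted. This split and the one below were added after the data were seen, and were the only 2 tried. The Trdc cells with Trdv4 numbered 48 and 32 with median depths of 2141 and 1806 UMIs, against 73 and 79 cells without it at 1999 and 1785 UMIs. Both sides were chosen on Trdc and Cd3, and a cell with more Trdc is also more likely to show its V segment, so a cell without a Trdv4 UMI is not shown to lack it. Of 3141 genes tested 45 were called, 1.43%, with 15 (0.478%) higher and 30 (0.955%) lower in cells with Trdv4.

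Cells with Trdv4 had more transcripts of genes known from interleukin 17 producing gamma delta T cells. Cd163l1, the scavenger receptor SCART1 of these cells, was detected in 95.8% and 81.2% of Trdc cells with Trdv4, against 41.1% and 34.2% of those without, and its log2 ratio was 1.59 ± 0.22 (edgeR quasi-likelihood, Benjamini-Hochberg adjusted p = 2.60e-06). Blk, a Src family kinase used by the same cells, was detected in 81.2% and 56.2% against 38.4% and 34.2%, with a log2 ratio of 1.38 ± 0.25 (adjusted p = 0.000308 by the same test). Tcrg-C1, the constant gene used by Tcrg-V6, was higher by 0.74 ± 0.15 (adjusted p = 0.00173 by the same test) and Trdc by 1.05 ± 0.12 (adjusted p = 1.99e-07). Trdc chose these cells and is the constant gene of the chain that Trdv4 belongs to. Its call is therefore not independent of the split. The call of Cd163l1 ended with DESeq2 (adjusted p = 0.740), without the replicate block (0.434) and on cells in place of UMIs (0.0607), with log2 ratios of 1.60, 1.60 and 1.17, and those of Blk, Trdc and Tcrg-C1 ended in the last 2 of these fits, that of Tcrg-C1 also with DESeq2 (0.107) and after thinning (0.116). No gene was called higher in cells with Trdv4 in either of those last 2 fits.

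The list of 8 genes for interleukin 17 producing gamma delta cells did not move as a whole. Of its members Tcrg-C1, Blk and Cd163l1 were higher, as was Trdc, which is not independent of the split. 5830411N06Rik was lower, and Sox13, Il17a and Maf did not pass the test. 5830411N06Rik, which encodes the related receptor SCART2, had 0 and 0 UMIs with Trdv4, against 32 and 30 without it, at least 7.36-fold and 4.46-fold lower against a floor of 3 counts in each sample. Il17a had 1 and 5 UMIs with Trdv4 and 10 and 3 UMIs without it. S100a6, a calcium-binding protein gene, was detected in 60.4% and 68.8% against 35.6% and 24.1% and was higher by 1.25 ± 0.22 (edgeR quasi-likelihood, Benjamini-Hochberg adjusted p = 0.000219). Igha and Jchain were also called higher, but 99.4% and 98.7% of their UMIs in replicate 1 cells with Trdv4 came from 1 cell.

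Summed UMIs of several genes of cytotoxic lymphocytes were lower in cells with Trdv4. Ccl5, a chemokine of cytotoxic and memory T cells, had 2 and 0 UMIs with Trdv4 and 224 and 48 without, with a log2 ratio of -6.36 ± 0.46 (edgeR quasi-likelihood, Benjamini-Hochberg adjusted p = 2.61e-13). It was detected in 4.17% and 0% of cells with Trdv4 and in 19.2% and 7.59% of cells without, and these intervals overlap in both replicates. Of its UMIs without Trdv4, 24.6% and 29.2% came from 1 cell, so few cells carry this ratio. Plac8 had 2 and 0 UMIs with Trdv4 and 57 and 105 without it. Xcl1, the chemokine lymphotactin, had 0 and 0 UMIs with Trdv4 and 30 and 40 without, at least 6.9-fold and 5.94-fold lower against the same floor. Of the 6 genes of the CD8 cytotoxic list, Ccl5, Nkg7, Gzma and Gzmb were lower, and Cd8a and Cd8b1 did not pass the test. For Gzma 76.2% and 87.0% of the UMIs without Trdv4 came from 1 cell, so its call rests on single cells. Gzmb was detected in 8.33% and 0% of cells with Trdv4 and in 8.22% and 11.4% of cells without, where 55.6% and 26.7% of its UMIs came from 1 cell. The adaptor Fyb and the receptor-proximal kinase Lck were lower too, with 8 and 4 Fyb UMIs with Trdv4 against 75 and 77 without it, and 1 and 8 Lck UMIs against 60 and 30. Without the replicate block edgeR called only 5830411N06Rik, Fyb and Plac8 of the 45 genes, and on cells in place of UMIs these 3, Lck and Lilr4b, so the calls of Ccl5, Nkg7 and Xcl1 ended in both fits. Gzma and Gzmb were not called without the block (adjusted p = 0.490 and 0.0959) and were not tested on cells, and the Lck call ended with DESeq2 (adjusted p = 0.724).

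**Figure D4:**
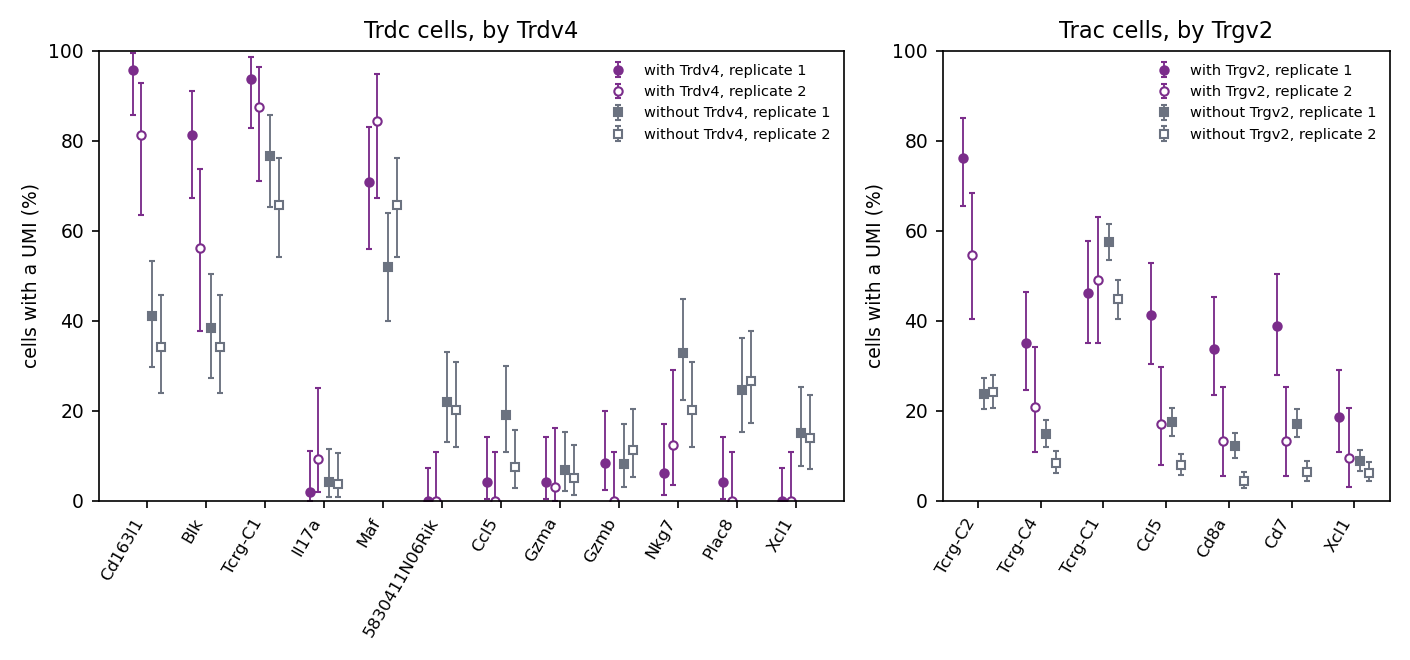
Percent of cells (y axis) with at least 1 UMI of each gene (x axis), for Trdc cells with and without Trdv4 and for Trac cells with and without Trgv2, 1 point per replicate with exact 95% Clopper-Pearson intervals. Cd163l1 stands at 95.8% and 81.2% with Trdv4 and at 41.1% and 34.2% without it, and Tcrg-C2 at 76.2% and 54.7% with Trgv2 and at 23.8% and 24.1% without it.

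Trac cells were split by Trgv2 in the same way. Those with a Trgv2 UMI numbered 80 and 53, with median depths of 2452.5 and 2212 UMIs, against 601 and 543 cells without Trgv2 at 2016 and 1775 UMIs, so the cells with a Trgv2 UMI were deeper. Of 3141 genes tested 23 were called, 0.732%, with 7 (0.223%) higher and 16 (0.509%) lower. Tcrg-C2, the constant gene of the same cluster, was detected in 76.2% and 54.7% of cells with Trgv2, against 23.8% and 24.1% of cells without, and was higher by 1.40 ± 0.20 (edgeR quasi-likelihood, Benjamini-Hochberg adjusted p = 1.88e-05). A cell with more transcripts of this cluster is more likely to show both Trgv2 and Tcrg-C2, so the Tcrg-C2 call is not independent of the split. Tcrg-C4, the constant gene next to Tcrg-V1, was higher by 1.15 ± 0.27 (adjusted p = 0.0159 by the same test).

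The remaining genes higher in Trac cells with Trgv2 were Ccl5, Cd8a, Cd7, Xcl1 and Cxcl2. Cd8a, the coreceptor of cytotoxic and many intraepithelial T cells, was detected in 33.8% and 13.2% of cells with Trgv2, against 12.2% and 4.42% of cells without, with a log2 ratio of 1.46 ± 0.27 (edgeR quasi-likelihood, Benjamini-Hochberg adjusted p = 0.000844). Ccl5 was detected in 41.2% and 16.98% against 17.5% and 7.92%, with a log2 ratio of 1.23 ± 0.16 (adjusted p = 1.58e-06). Of the CD8 cytotoxic list 2 of 6 were higher, and Cd8b1, Gzma, Gzmb and Nkg7 did not pass the test. The genes lower with Trgv2 included Col1a1, Dcn, Igha and Igkc, markers of fibroblasts and plasma cells. With fibroblast-marked and immunoglobulin-high cells left out, 6 genes were called, all higher: Ccl5, Cd7, Cd8a, Cxcl2, Tcrg-C2 and Tcrg-C4. DESeq2 and edgeR without the replicate block each called 0 genes of this split, with 19 and 22 at an unadjusted p under 0.05, and on cells in place of UMIs edgeR called Tcrg-C2 alone.

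The enzymes that join V segments were not detected. Rag1 and Rag2, which cut the receptor loci, and Dntt, which adds bases at the joins, had 0 UMIs in 3337 and 3840 kept cells, which allows up to 0.0899% and 0.0781% of cells with a UMI. This limits detection at this depth, not the share of cells that express these genes.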

How the data were processed

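Both samples were measured by single-cell RNA sequencing on the BD Rhapsody system. Per the file headers, the authors made the deposited counts, unnormalised UMI counts per cell and gene, with the Rhapsody Analysis Pipeline 1.8 on GRCm38 with a GENCODE M19 annotation. The submitters' processing notes also name HISAT2 2.0.5, Bowtie2, mm10 and GRCm38.p6, without a role. How reads that match several V segments were assigned is not given in the sources used here. Sample tag calls deposited by the authors chose the cells (tag 6 and tag 12), 3427 and 3954 in replicates 1 and 2.

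A cell was kept if it had 300 genes or more and no more than 25% of its UMIs from mitochondrial genes. No doublet caller was run beyond the tag multiplets, which were not used. V segments were matched to GENCODE M21 by symbol, all 93 of 93. UMIs were summed per sample and class, giving 6 sums, and fitted in R 4.3.3 with edgeR 4.0.16. Its quasi-likelihood test was used on genes passing filterByExpr, scaled by TMM, with the replicate as a block and Benjamini-Hochberg adjustment over every gene tested (2 residual degrees of freedom). The replicate pairs the sums because all classes come from the same samples. Genes that chose the classes were left out of those tests. The splits by Trdv4 and by Trgv2 used 8 sums in 1 fit without these 2 genes, and the genes that chose the classes stayed in. Shares have exact Clopper-Pearson intervals, from Python 3.11.15 with scipy 1.17.1. Thinning drew 1000 UMIs per cell and left out shallower cells, 15 and 16 Trac, 1 and 6 Trdc and 70 and 84 T-gene-zero cells.

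The members, gene lists and tests were chosen with earlier results of these data known. Members named in the text were drawn from the 8 with the most UMIs in each class and locus, those past the threshold in a test, and segments known from innate-like T cells, and the others are given as counts. Genes named from the splits were chosen after their values were seen, apart from the 2 lists. On simulated counts with 200 changed genes, for Trac over T-gene-zero cells, the test found 55.0% of 2-fold and 90.5% of 4-fold changes among 7194 and 7214 genes, with 4 and 9 false calls. The simulation used a single fixed dispersion for all genes and no other difference between samples or classes. It also had no genes carried by single cells, so its false calls do not bound those in the data. Alternatives were DESeq2 1.42.0, RLE scaling, other filters, other class definitions, thinning and no block.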

Additional observations from a re-analysis of the deposited data

How the results depend on the processing

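The log2 ratio of Trdv4 in Trdc over T-gene-zero cells was past the threshold in all 14 alternatives, at 3.89 to 4.95. That of Trgv2 in Trac over T-gene-zero cells was past it in 13 of 14, at 3.88 to 5.34. Every alternative still chose the classes by Trac and Trdc, so none tests how that choice bears on Trdv4. The log2 ratio of Trgv2 in Trac over Trdc cells passed in none, at 0.24 to 0.66, and no result changed sign. Without the replicate block, where the fit has 3 residual degrees of freedom, 0 V segments were called in Trac over T-gene-zero cells (2 at an unadjusted p under 0.05), 1 in Trdc over T-gene-zero cells and 0 in Trac over Trdc cells (1 unadjusted), all with edgeR, and DESeq2 with the block called 2, 2 and 1. With no Cd3 UMI required, 1 V segment was called in Trac over T-gene-zero cells, 20.8% of Trdc cells had Trdv4 and 5.34% and 2.26% of Trac cells had a Trbv and a Trav segment, against main means of 34.2%, 6.01% and 2.73%. Requiring 2 UMIs of Trac or Trdc gave 43.1% for Trdv4 and 2.31% for Trav, with an inverse Simpson index of Trav of 5.91. Thinned to 1000 UMIs per cell, 22.1% of Trdc cells had Trdv4 and 5.29%, 2.91% and 1.33% of Trac cells had Trgv2, Trbv and Trav, as fewer UMIs were read. Counted by cells, Trdv4 made up 95.1% of Trdv usage in Trdc cells.

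Leaving out each replicate in turn left single samples, so no test could be run. The share of Trdc cells with Trdv4 was then 28.8 to 39.7%, of Trac cells with Trgv2 8.89 to 11.7%, with Trbv 5.70 to 6.31% and with Trav 2.52 to 2.94%, and of T-gene-zero cells with any segment 1.20 to 3.35%. The inverse Simpson index was 5.57 to 8.50 for Trbv and 7.26 to 10.8 for Trav, and Trdv4 was 96.2 to 97.8% of Trdv usage. The single-sample log2 ratios of Trdv4 were 3.56 to 5.66 for Trdc over T-gene-zero cells and -2.23 to -0.74 for Trac over T-gene-zero cells. Those of Trgv2 were 2.82 to 4.66 for Trac over T-gene-zero cells.

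The splits depended more on the settings. For Trdc cells with Trdv4 over those without it, DESeq2 called 22 genes, all among the 45, no replicate block left 3 and counting cells in place of UMIs left 5, against 45, and the call of Cd163l1 ended in all 3 of these and those of Blk, Trdc, Tcrg-C1 and S100a6 in the last 2. For Trac cells with Trgv2, against 23, DESeq2 called 0 (19 at an unadjusted p under 0.05), no replicate block 0 (22 unadjusted), counting cells 1 (Tcrg-C2), thinning 5, leaving out fibroblast-marked and immunoglobulin-high cells 6, and no filter on low counts 47. With no filter the median log2 ratio over all genes moved to -0.16 in Trdc over T-gene-zero cells and to 0.16 in Trac over Trdc cells. Apart from thinning, filtering and leaving cells out, which change the data tested, the cause was not tested. Depth limits the Trav results, with 21 and 15 Trav UMIs counted in Trac cells.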

Other observations

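Across the 52 members with a UMI, the counts of the replicates on a log2(UMI + 1) scale had a Pearson r of 0.775 and a Spearman rho of 0.390, given as a description over genes of 2 libraries. Alpha J segments were detected more often than alpha V segments, with 53 and 57 Traj UMIs and 21 and 15 Trav UMIs in Trac cells. Immunoglobulin V segments, the V segments of B cells, had 96 and 0 UMIs in Trac cells, 99 and 1 in Trdc cells and 412 and 386 in T-gene-zero cells. Tcrg-V4 had 17 and 6 UMIs in Trac cells, 4 and 4 in Trdc cells and 0 and 0 in T-gene-zero cells. Prkdc, Xrcc5 and Xrcc6, repair genes that every dividing cell uses beside V segment joining, had UMIs in every class.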
